A study of Mus musculus with 15 samples.

Results

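The interferon-stimulated genes described here are 39 genes chosen by symbol from the 23866 gene rows of a kidney RNA sequencing experiment, and all 39 had a row and were tested. They were chosen as genes that interferon is known to induce, sorted here into 9 sets by what their proteins do. The kidneys came from male C57BL/6 mice in 4 treatment groups, with 1 library per mouse. The CCl4+EtOH group (n = 3) had intraperitoneal injections of carbon tetrachloride, a solvent toxic to liver and kidney, for 6 weeks and then ethanol for 4 weeks. The titles of these samples repeat CCl4 before EtOH, while their source names give no CCl4 in the ethanol weeks, so the labels do not settle whether CCl4 went on. The EtOH group (n = 4) had injections of olive oil, the vehicle of CCl4, for 6 weeks and then ethanol for 4 weeks. In the CCl4 group (n = 4), replicates 1 and 2 had CCl4 for 6 weeks, and replicates 3 and 4 had another 4 weeks at a reduced dose. The olive oil group (n = 3) had the vehicle for 6 weeks. Ethanol and the 4 further weeks therefore cannot be told apart in comparisons with olive oil.

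Interferons are secreted signals of viral infection and cell damage. Type I interferons act through a receptor and its kinases on a complex that holds STAT2 and IRF9 and binds the interferon-stimulated response element (ISRE) in promoters. Interferon gamma acts through a receptor of its own and the gamma-activated site (GAS) in promoters, and raises IRF1, a factor that also reads ISRE-like sequences. The induced proteins sense foreign nucleic acid, block viral replication and, in the mouse, include a large family of immunity-related GTPases that attack the vacuoles of intracellular parasites.

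The promoters of the members carried the ISRE often. RefSeq promoters of GRCm38.p6, each running from 250 bases before to 50 after the start of a gene, were at hand for 28 of the 39 members. The 11 without one were Dhx58, Zbp1, Usp18, Oas2, Mx1, Mx2, Ifi27, Rtp4, Parp14, Gbp6 and Iigp1. The letters GAAA, any 2 bases and GAAA, searched on both strands (TTTC, any 2 bases and TTTC on the other), were found in 18 of the 28, or 64.3%, against 3.99% of 27025 genes with a promoter in that table. Matches of the motif may overlap each other. The longer form that goes on with CT was in 10 of the 28, or 35.7%, against 0.303% of all genes. The GAS letters TTCNNNGAA, which read the same on both strands, were in 11 of the 28, or 39.3%, against 9.55% of all genes. The 8 stretches of 80 bases printed next, 5′ to 3′ on the strand of the gene, were picked after the values were seen, because they span the patterns of expression described below. Capitals mark the matches of the shorter ISRE. The first 5 genes were raised in CCl4+EtOH kidneys, the next pair are GTPases whose EtOH and CCl4 libraries all lay below olive oil, and Rsad2 did not pass against olive oil.
Isg15 (chr4:156200840-156200919, minus strand): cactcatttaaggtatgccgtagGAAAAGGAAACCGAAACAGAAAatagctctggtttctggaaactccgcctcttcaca
Ifit1 (chr19:34640769-34640848, plus strand): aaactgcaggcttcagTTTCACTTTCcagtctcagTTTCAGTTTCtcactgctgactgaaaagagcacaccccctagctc
Oas1a (chr5:120907526-120907605, minus strand): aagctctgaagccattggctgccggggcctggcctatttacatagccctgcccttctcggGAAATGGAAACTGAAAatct
Gbp2 (chr3:142620569-142620648, plus strand): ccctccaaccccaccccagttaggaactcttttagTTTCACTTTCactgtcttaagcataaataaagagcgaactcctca
Gbp3 (chr3:142559964-142560043, plus strand): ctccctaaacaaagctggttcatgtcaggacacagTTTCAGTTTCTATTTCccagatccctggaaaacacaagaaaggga
Igtp (chr11:58199476-58199555, plus strand): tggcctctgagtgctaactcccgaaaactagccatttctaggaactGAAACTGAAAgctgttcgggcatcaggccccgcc
Tgtp1 (chr11:48992279-48992358, minus strand): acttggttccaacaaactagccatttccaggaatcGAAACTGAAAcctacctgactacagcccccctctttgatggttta
Rsad2 (chr12:26456528-26456607, minus strand): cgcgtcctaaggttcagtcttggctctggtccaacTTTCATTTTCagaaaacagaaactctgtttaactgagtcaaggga
Each stretch was cut around an ISRE match before the start of the gene, so all 8 hold its letters by choice. The stretches of Igtp and Tgtp1 also hold the GAS letters once each. Members without such an ISRE match could not be shown, among them Oasl1, Irf1, Irf7, Irf9 and Xaf1, which rose in CCl4+EtOH. The motif was in 3 of the 3 guanylate-binding protein promoters and in 3 of the 3 immunity-related GTPase promoters at hand. It was in 2 of the 4 promoters of the OAS family and in 0 of the 3 of the set of other induced genes. A match is a description of these letters and not a binding site shown here.

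Libraries held 16.4 to 23.5 M counts. Levels are in CPM, counts relative to the scaled library size, with SD over mice after ±. Fold changes are on the log2 scale with a standard error (SE) after ±, from edgeR's quasi-likelihood test with Benjamini-Hochberg adjusted p over all 16105 genes tested and a threshold of 0.05. In bulk tissue, fewer cells of a type and less RNA per cell cannot be told apart. CCl4+EtOH replicate 3 stood apart from replicates 1 and 2, and values are given with and without libraries where that matters. Summed proximal tubule markers were at 7826 to 19584 CPM in CCl4+EtOH and at 19369.5 to 23794 CPM in all other libraries, so kidney tissue was present throughout. Summed adrenal markers were at 748 to 1194 CPM in EtOH replicates 1 to 3, at 9.19 CPM in EtOH replicate 4 and at no more than 27.0 CPM in the other libraries. Summed neutrophil markers were at 186 CPM in EtOH replicate 4 and at 3.01 to 41.6 CPM in the other libraries.

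In CCl4+EtOH kidneys, 25 of the 39 interferon-stimulated genes were higher than in olive oil kidneys and 0 were lower. Across all genes tested, 18.9% were higher and 16.6% were lower, or 35.4% in either direction. The median change of the members was 0.93, against 0.02 over all genes. The transcription factors Irf1, Irf7 and Irf9, the RNA sensors Ddx58 and Ifih1, 4 of the 5 OAS genes and 3 of the 4 guanylate-binding proteins were among the 25, while 3 of the 4 immunity-related GTPases did not pass the threshold. Without CCl4+EtOH replicate 1 the count was 16, where 13.1% of all genes were higher in the same fit. Without replicate 2 it was 11, against 13.4%, and without replicate 3 it was 34, against 23.1%. With replicate 3 alone for its group it was 0, against 2.38%. It was 16 without olive oil replicate 1, against 15.1%, and 13 without olive oil replicate 2, against 13.4%. With each library left out in turn, 11 of the 25 were called every time, namely Irf1, Ddx58, Ifih1, Ifit2, Oas1a, Oasl1, Bst2, Eif2ak2, Ifi27, Xaf1 and Parp14. With only the CCl4+EtOH and olive oil libraries in the fit, 12 members passed, all higher, against 11.6% of all genes. Mouse numbers in the titles fell in a low and a high range. All CCl4+EtOH mice were in the high one and all olive oil mice in the low one. Among CCl4 mice the range matched the schedule, and among EtOH mice only replicate 1 was in the low one. The block therefore cannot be told apart from the CCl4 schedule. A fit with that range as a block called 6 members, all higher. In that fit 9.74% of all genes were higher and 19.2% passed in either direction, so the members' share of 15.4% lay above the background of higher genes and below that of both directions.

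**Figure D1:**
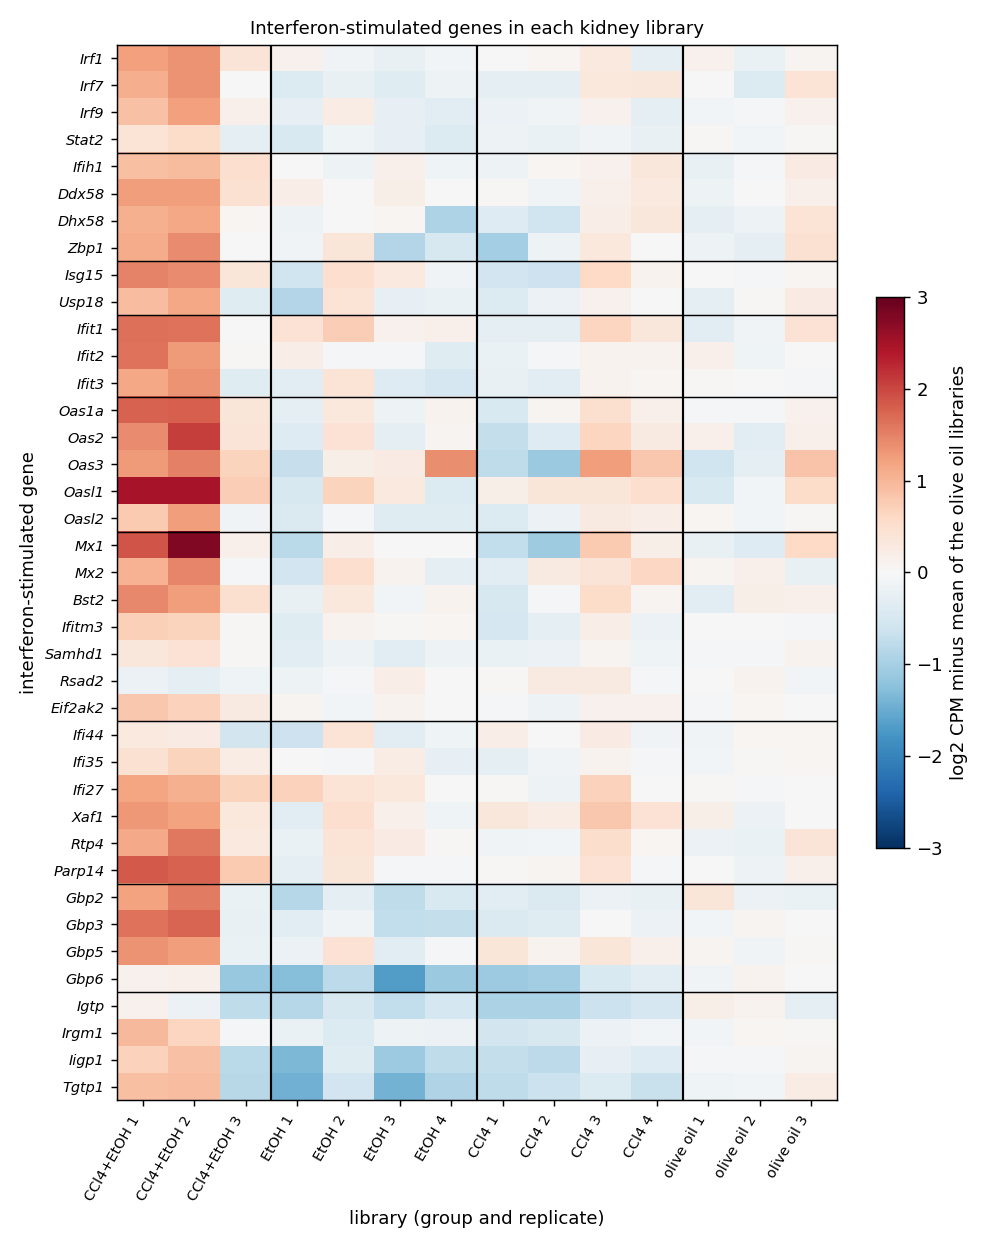
Each row is an interferon-stimulated gene and each column a library, with horizontal lines between the 9 sets. Colour gives log2 CPM minus the mean of the olive oil libraries. CCl4+EtOH replicates 1 and 2 are red in nearly every row, with member medians of 1.11 and 1.26, while replicate 3 is pale, with a median of 0.03, and blue in the lowest rows.

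Among the transcription factors, 3 of 4 rose in CCl4+EtOH kidneys. Irf1, induced by interferon gamma, was at 50.1, 54.7 and 28.2 CPM in CCl4+EtOH, 23.5, 19.9, 18.5 and 20.2 in EtOH, 21.8, 22.5, 26.4 and 17.9 in CCl4, and 23.5, 18.6 and 22.7 in olive oil. All CCl4+EtOH libraries lay above all others, and the change from olive oil was 1.04 ± 0.21 (adjusted p = 0.00211). Irf9, the DNA-binding part of the type I complex, was at 42.6, 54.3 and 25.6 CPM in CCl4+EtOH, 19.5, 27.3, 19.6 and 18.4 in EtOH, 20.5, 21.7, 25.2 and 19.3 in CCl4, and 21.8, 22.4 and 25.6 in olive oil. CCl4+EtOH replicate 3 lay only just above the highest olive oil library, and with DESeq2 size factors it lay within their range. The change was 0.81 ± 0.22 (adjusted p = 0.0118). Irf7, which drives further interferon production, was at 32.9, 39.3 and 15.5 CPM in CCl4+EtOH, 11.5, 13.1, 11.97 and 13.9 in EtOH, 12.7, 12.8, 19.1 and 19.5 in CCl4, and 15.4, 11.5 and 20.4 in olive oil. Here replicates 1 and 2 were high and replicate 3 fell within the olive oil range, with a change of 0.89 ± 0.30 (adjusted p = 0.0313). Stat2, the partner of IRF9, was at 45.2, 49.96 and 27.8 CPM in CCl4+EtOH, 24.7, 30.9, 28.6 and 25.7 in EtOH, 30.7, 29.7, 31.4 and 29.1 in CCl4, and 34.8, 32.3 and 34.8 in olive oil. Replicates 1 and 2 were above and replicate 3 below all olive oil libraries, and the change of 0.27 ± 0.16 (adjusted p = 0.2) did not pass.

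The cytosolic sensors Ddx58 (RIG-I) and Ifih1 (MDA5), which detect viral RNA, rose in all 3 CCl4+EtOH kidneys. Ddx58 was at 88.2, 88.5 and 51.1 CPM in CCl4+EtOH, 42.3, 37.2, 41.7 and 36.6 in EtOH, 38.1, 34.5, 41.3 and 45.5 in CCl4, and 33.3, 36.9 and 41.3 in olive oil. The groups did not overlap, and the change from olive oil was 1.03 ± 0.17 (adjusted p = 0.00087). Ifih1 was at 38.5, 39.5 and 28.9 CPM in CCl4+EtOH, 20.3, 18.3, 22.8 and 18.7 in EtOH, 18.5, 21.1, 22.2 and 25.7 in CCl4, and 17.6, 19.9 and 24.2 in olive oil, again without overlap, with a change of 0.79 ± 0.15 (adjusted p = 0.00171). The other pair of sensors did not pass. Dhx58 (LGP2), a regulator of that pair, was at 7.95, 8.51 and 3.93 CPM in CCl4+EtOH, 3.37, 3.76, 3.92 and 1.97 in EtOH, 2.85, 2.47, 4.31 and 4.803 in CCl4, and 3.11, 3.401 and 5.04 in olive oil. Zbp1, a sensor of Z-form nucleic acid that can start necroptosis, was at 7.15, 8.84 and 3.24 CPM in CCl4+EtOH, 3.07, 4.25, 1.77 and 2.35 in EtOH, 1.61, 2.96, 4.08 and 3.28 in CCl4, and 2.93, 2.65 and 4.55 in olive oil. In both genes CCl4+EtOH replicate 3 lay within the olive oil range, and the changes were 0.82 ± 0.34 (adjusted p = 0.074) for Dhx58 and 0.93 ± 0.41 (adjusted p = 0.0901) for Zbp1.

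Isg15, a ubiquitin-like protein attached to many targets after interferon, was at 8.74, 8.31 and 3.97 CPM in CCl4+EtOH, 2.03, 4.402, 3.78 and 2.85 in EtOH, 2.07, 1.97, 4.73 and 3.34 in CCl4, and 3.11, 2.96 and 3.197 in olive oil. The 3 CCl4+EtOH libraries were above the olive oil ones, and the change was 1.18 ± 0.37 (adjusted p = 0.0229). EtOH replicate 2 and CCl4 replicate 3 were above CCl4+EtOH replicate 3. Usp18, the enzyme that removes ISG15 and dampens the type I receptor, was at 9.58, 11.3 and 3.84 CPM in CCl4+EtOH, 2.68, 6.68, 4.22 and 4.31 in EtOH, 3.73, 4.44, 5.49 and 5.05 in CCl4, and 4.11, 5.12 and 5.91 in olive oil. Replicate 3 was below all olive oil libraries, and the change of 0.70 ± 0.36 (adjusted p = 0.138) did not pass.

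The IFIT proteins bind foreign RNA and hold back its translation. Ifit1 was at 18.6, 18.1 and 5.74 CPM in CCl4+EtOH, 7.93, 9.69, 6.38 and 6.53 in EtOH, 4.87, 4.74, 9.097 and 7.36 in CCl4, and 4.69, 5.39 and 7.86 in olive oil. Ifit2 was at 51.01, 40.4 and 16.8 CPM in CCl4+EtOH, 19.04, 16.1, 16.1 and 12.8 in EtOH, 14.3, 15.9, 17.7 and 17.9 in CCl4, and 18.4, 15.1 and 16.4 in olive oil. Both rose, by 1.24 ± 0.39 (adjusted p = 0.0237) for Ifit1 and 1.12 ± 0.29 (adjusted p = 0.00919) for Ifit2, with CCl4+EtOH replicate 3 within the olive oil range. Ifit3, the scaffold of the IFIT complex, was at 47.6, 54.3 and 16.5 CPM in CCl4+EtOH, 16.95, 28.3, 16.3 and 14.96 in EtOH, 18.1, 17.02, 22.8 and 22.01 in CCl4, and 21.7, 21.4 and 20.6 in olive oil. Replicate 3 was below all olive oil libraries, and the change of 0.90 ± 0.34 (adjusted p = 0.0572) missed the threshold. Ifit3 has a near-identical paralog in the mouse, so its counts are uncertain.

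The OAS family makes short oligoadenylates that switch on the RNA-cutting enzyme RNase L, and 4 of its 5 genes rose. Oasl1, a member without that activity, was at 12.9, 12.95 and 3.84 CPM in CCl4+EtOH, 1.64, 3.66, 2.796 and 1.71 in EtOH, 2.59, 2.96, 2.95 and 3.28 in CCl4, and 1.64, 2.16 and 3.36 in olive oil. All CCl4+EtOH libraries were above all others, and its change of 2.05 ± 0.43 (adjusted p = 0.00272), a 4.14-fold difference, was the largest of the 39 members. Oas1a was at 13.6, 13.8 and 5.09 CPM in CCl4+EtOH, 3.22, 4.897, 3.53 and 4.25 in EtOH, 2.85, 4.19, 5.55 and 4.38 in CCl4, and 3.81, 3.75 and 4.28 in olive oil, with a change of 1.46 ± 0.33 (adjusted p = 0.00399). Its level in CCl4 replicate 3 was above that in CCl4+EtOH replicate 3, and reads may have been split between close Oas1 paralogs. Oas2 was at 14.5, 22.6 and 6.99 CPM in CCl4+EtOH, 4.06, 7.32, 4.46 and 5.71 in EtOH, 3.26, 4.096, 8.39 and 6.44 in CCl4, and 5.98, 4.33 and 5.96 in olive oil, with a change of 1.44 ± 0.40 (adjusted p = 0.0144). CCl4+EtOH replicate 3 was again above the olive oil libraries and below single EtOH and CCl4 libraries. Oas3 was at 2.26, 2.704 and 1.47 CPM in CCl4+EtOH, 0.545, 1.04, 1.08 and 2.47 in EtOH, 0.518, 0.395, 2.24 and 1.64 in CCl4, and 0.587, 0.751 and 1.68 in olive oil, and its change of 1.09 ± 0.63 (adjusted p = 0.196) did not pass. Oasl2 ran from 13.3 to 34.5 CPM in CCl4+EtOH and from 13.6 to 14.9 CPM in olive oil, with a change of 0.75 ± 0.27 (adjusted p = 0.0427).

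**Figure D2:**
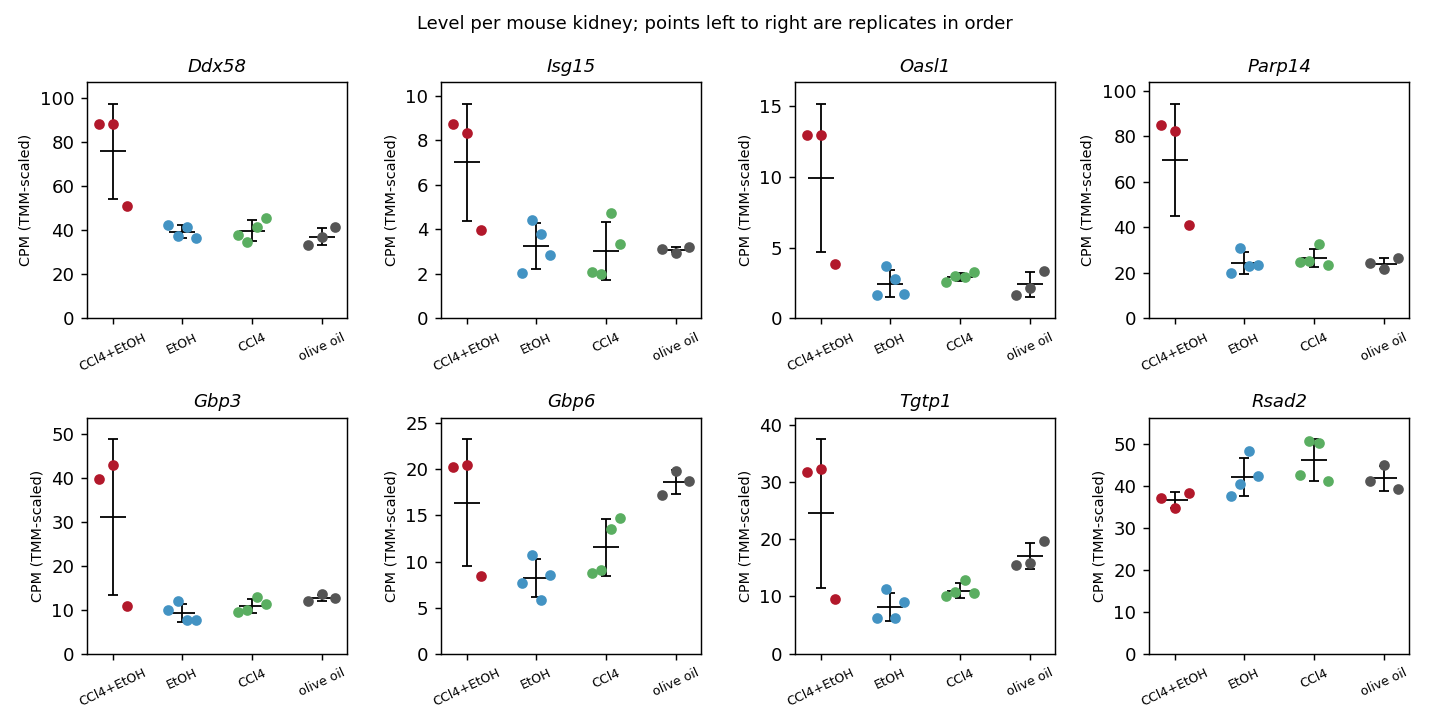
Each point is the CPM of a mouse kidney, with replicates in order from left to right, the long horizontal line at the group mean and bars of ± SD. CCl4+EtOH replicate 3 lies between its group's other libraries and olive oil for Ddx58, Isg15, Oasl1 and Parp14. It lies below the olive oil libraries for Gbp3, Gbp6 and Tgtp1, and Rsad2 stays between 34.7 and 50.7 CPM in all groups.

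Restriction factors act directly on viruses, and 4 of 7 rose. Eif2ak2 (PKR), a kinase that stops translation when it binds double-stranded RNA, was at 44.1, 40.9 and 30.4 CPM in CCl4+EtOH, 26.8, 23.99, 27.1 and 25.04 in EtOH, 24.4, 22.7, 27.7 and 27.5 in CCl4, and 24.1, 26.1 and 25.6 in olive oil. Bst2 (tetherin), which holds budding particles at the cell surface, was at 39.9, 34.9 and 20.6 CPM in CCl4+EtOH, 12.6, 18.3, 13.7 and 15.8 in EtOH, 10.4, 14.1, 21.3 and 15.4 in CCl4, and 11.7, 16.4 and 16.4 in olive oil. Both were above the olive oil range in all 3 CCl4+EtOH libraries, with changes of 0.61 ± 0.12 (adjusted p = 0.00233) for Eif2ak2 and 1.10 ± 0.27 (adjusted p = 0.00668) for Bst2. Mx1, a dynamin-like GTPase that blocks influenza virus in the nucleus and of which C57BL/6 mice are known to carry a defective allele, was at 5.76, 10.7 and 1.68 CPM in CCl4+EtOH, 0.843, 1.73, 1.52 and 1.52 in EtOH, 0.881, 0.691, 2.66 and 1.702 in CCl4, and 1.29, 1.15 and 2.33 in olive oil. Its change of 1.93 ± 0.59 (adjusted p = 0.0228) came with high levels in replicates 1 and 2, and replicate 3 lay within the olive oil range. Ifitm3, which hinders entry from endosomes, was at 60.8, 59.03 and 37.95 CPM in CCl4+EtOH, 28.9, 39.7, 37.8 and 38.3 in EtOH, 26.3, 30.4, 42.5 and 32.6 in CCl4, and 37.4, 37.4 and 36.4 in olive oil. Its change of 0.51 ± 0.19 (adjusted p = 0.0492) was next to the threshold. Samhd1, which depletes the nucleotides needed for reverse transcription, was at 48.99, 52.5 and 39.5 CPM in CCl4+EtOH, 31.3, 35.1, 30.8 and 35.1 in EtOH, 33.7, 34.1, 40.99 and 35.6 in CCl4, and 37.5, 37.4 and 41.5 in olive oil, and its change of 0.28 ± 0.11 (adjusted p = 0.0641) did not pass. Mx2 ran from 1.68 to 4.84 CPM in CCl4+EtOH and from 1.46 to 1.90 CPM in olive oil, with a change of 0.96 ± 0.38 (adjusted p = 0.0608).

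Rsad2 (viperin), a radical enzyme that makes a chain terminator for viral polymerases, was not raised. It was at 37.03, 34.7 and 38.4 CPM in CCl4+EtOH, 37.6, 40.4, 48.4 and 42.5 in EtOH, 42.6, 50.7, 50.2 and 41.1 in CCl4, and 41.2, 45.1 and 39.3 in olive oil. The 3 CCl4+EtOH libraries were all below the olive oil ones, although with upper-quartile scaling replicate 3 lay within their range. The change was -0.19 ± 0.11 (adjusted p = 0.185) against olive oil and -0.33 ± 0.10 (adjusted p = 0.0213) against CCl4. Rsad2 was thereby the 1 member called lower in CCl4+EtOH than in CCl4 kidneys. That call was lost without CCl4+EtOH replicate 1 (adjusted p = 0.0643), without CCl4+EtOH replicate 2 (adjusted p = 0.0944), without CCl4 replicate 2 (adjusted p = 0.0629) and without CCl4 replicate 3 (adjusted p = 0.0558). Cmpk2, a neighbour of Rsad2 that interferon also induces, was at 20.6, 18.8 and 20.5 CPM in CCl4+EtOH, 21.6, 19.6, 23.1 and 23.6 in EtOH, 14.5, 18.6, 19.4 and 19.03 in CCl4, and 16.7, 22.6 and 17.9 in olive oil, with a change of 0.06 ± 0.13 (adjusted p = 0.741) from olive oil.

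Of the other induced genes, 5 of 6 rose. Parp14, an ADP-ribosyltransferase, was at 85.2, 82.4 and 41.02 CPM in CCl4+EtOH, 19.7, 30.9, 23.01 and 23.3 in EtOH, 24.6, 25.3, 32.5 and 23.5 in CCl4, and 24.1, 21.5 and 26.6 in olive oil. It had the smallest p of all members, with a change of 1.53 ± 0.24 (adjusted p = 0.000637), and no CCl4+EtOH library overlapped with another group. Ifi27, a mitochondrial membrane protein, was at 81.3, 74.6 and 56.2 CPM in CCl4+EtOH, 57.1, 47.6, 43.96 and 36.01 in EtOH, 36.5, 31.7, 57.1 and 35.6 in CCl4, and 36.5, 34.1 and 35.9 in olive oil. All 3 CCl4+EtOH libraries were above the olive oil range, as were EtOH replicates 1 to 3 and CCl4 replicate 3. The change with CCl4+EtOH was 0.99 ± 0.21 (adjusted p = 0.00306). Xaf1, which antagonises an inhibitor of apoptosis, was at 11.05, 10.4 and 5.61 CPM in CCl4+EtOH, 3.62, 6.43, 4.96 and 4.12 in EtOH, 5.65, 5.28, 7.92 and 6.08 in CCl4, and 5.104, 3.98 and 4.44 in olive oil, with a change of 1.004 ± 0.27 (adjusted p = 0.00994). Ifi35, a cytoplasmic protein of the response, was at 20.2, 23.4 and 17.1 CPM in CCl4+EtOH, 14.4, 14.1, 17.2 and 12.3 in EtOH, 12.02, 13.5, 15.7 and 14.04 in CCl4, and 13.9, 14.9 and 15.2 in olive oil, with a change of 0.46 ± 0.14 (adjusted p = 0.0203). Rtp4, a chaperone of receptors, ran from 6.13 to 14.97 CPM in CCl4+EtOH and from 4.33 to 6.50 CPM in olive oil, with a change of 1.08 ± 0.29 (adjusted p = 0.0115). Ifi44 was at 21.8, 21.1 and 12.1 CPM in CCl4+EtOH, 11.5, 23.5, 14.03 and 16.4 in EtOH, 20.4, 17.7, 21.03 and 16.5 in CCl4, and 16.5, 18.4 and 18.5 in olive oil. Replicates 1 and 2 were above and replicate 3 below the olive oil libraries, and the change was 0.04 ± 0.24 (adjusted p = 0.903).

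Guanylate-binding proteins coat and break the vacuoles of intracellular microbes, and 3 of 4 rose in CCl4+EtOH. Gbp2 was at 42.6, 53.8 and 15.97 CPM in CCl4+EtOH, 10.2, 14.8, 10.7 and 13.3 in EtOH, 14.8, 13.6, 16.2 and 15.6 in CCl4, and 23.6, 16.3 and 15.99 in olive oil. Gbp3 was at 39.8, 43.02 and 10.8 CPM in CCl4+EtOH, 10.1, 11.9, 7.65 and 7.798 in EtOH, 9.48, 9.92, 12.9 and 11.2 in CCl4, and 12.03, 13.5 and 12.7 in olive oil. Gbp5, which also promotes inflammasome activity, was at 12.2, 11.5 and 4.19 CPM in CCl4+EtOH, 4.26, 6.53, 3.78 and 4.69 in EtOH, 6.17, 5.13, 6.202 and 5.35 in CCl4, and 5.104, 4.42 and 4.88 in olive oil. In all 3 genes CCl4+EtOH replicates 1 and 2 were far above olive oil and replicate 3 was below it, for Gbp2 only narrowly and not with upper-quartile scaling. The changes were 1.01 ± 0.32 (adjusted p = 0.0274) for Gbp2, 1.29 ± 0.37 (adjusted p = 0.0156) for Gbp3 and 0.96 ± 0.31 (adjusted p = 0.0282) for Gbp5. Gbp6 was at 20.2, 20.5 and 8.42 CPM in CCl4+EtOH, 7.63, 10.7, 5.79 and 8.56 in EtOH, 8.76, 9.03, 13.6 and 14.8 in CCl4, and 17.2, 19.9 and 18.7 in olive oil. Olive oil kidneys were just below CCl4+EtOH replicates 1 and 2 in this gene, while all EtOH and CCl4 libraries and CCl4+EtOH replicate 3 were lower, and the change of CCl4+EtOH from olive oil was -0.18 ± 0.30 (adjusted p = 0.667). Reads of Gbp6 may be split with a close paralog.

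In all 4 immunity-related GTPases, every EtOH and CCl4 library was likewise below every olive oil library, for Irgm1 only narrowly so in 1 CCl4 library. Of all genes tested, 6.69% lay below olive oil in this way in EtOH and 3.74% in CCl4. The share below in both at once is not given here. Tgtp1 (Irgb6), an effector that loads onto parasite vacuoles, was at 31.7, 32.3 and 9.54 CPM in CCl4+EtOH, 6.197, 11.3, 6.28 and 9.003 in EtOH, 10.002, 10.8, 12.8 and 10.6 in CCl4, and 15.5, 15.9 and 19.7 in olive oil. Iigp1 (Irga6), another effector, was at 30.2, 34.5 and 10.7 CPM in CCl4+EtOH, 7.24, 14.4, 8.73 and 10.97 in EtOH, 11.4, 10.8, 15.7 and 14.3 in CCl4, and 18.3, 17.98 and 19.6 in olive oil. Both were above olive oil in CCl4+EtOH replicates 1 and 2 and below it in replicate 3. Igtp (Irgm3), a regulator that keeps the effectors off host membranes, was at 27.2, 22.1 and 14.6 CPM in CCl4+EtOH, 13.8, 17.9, 14.9 and 17.3 in EtOH, 12.9, 12.9, 15.9 and 17.6 in CCl4, and 27.8, 26.8 and 20.4 in olive oil. Irgm1, a second regulator, was at 127, 101 and 61.9 CPM in CCl4+EtOH, 56.6, 49.02, 58.6 and 57.2 in EtOH, 44.4, 46.7, 56.9 and 60.8 in CCl4, and 61.01, 67.1 and 66.2 in olive oil. Irgm1 was the 1 gene of the set that rose in CCl4+EtOH, by 0.58 ± 0.20 (adjusted p = 0.0353), and the changes of the others were 0.53 ± 0.35 (adjusted p = 0.26) for Tgtp1, 0.43 ± 0.34 (adjusted p = 0.339) for Iigp1 and -0.23 ± 0.20 (adjusted p = 0.391) for Igtp. Tgtp1 has a near-identical copy, so its counts are uncertain.

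The 3 CCl4+EtOH libraries did not agree on these genes. Replicates 1 and 2 each lay above every olive oil library for 37 of 39 members, within their range for Igtp and below it for Rsad2. For both replicates to be above held for 33.8% of all genes tested. Replicate 3 lay above every olive oil library for 15 members, within their range for 11 and below it for 13, against 35.1% above, 32.6% within and 32.3% below over all genes. The share above was thus close to the background in replicate 3. All 3 libraries were above for 15 members, against 22.9% of all genes, and all 3 were below for 1, Rsad2, against 20.8%. In 11 members replicates 1 and 2 were above and replicate 3 below, a pattern of 2.53% of all genes. These were Stat2, Usp18, Ifit3, Oasl2, Ifi44, Gbp2, Gbp3, Gbp5, Iigp1, Tgtp1 and Gbp6.

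Replicate 3 was the lowest of the 3 libraries for 38 of 39 members, with Rsad2 as the exception, and for 41% of all genes tested. Among genes called higher than in olive oil, replicate 3 was lowest for 25 of 25 members and 82% of 3036 genes. It was above every olive oil library for 15 of those 25 members, or 60%, and for 89.8% of those 3036 genes. The median SD of log2 CPM within the CCl4+EtOH group was 0.63 over members and 0.23 over all genes. Over members it was 0.27 in EtOH, 0.23 in CCl4 and 0.15 in olive oil, and over all genes it was 0.17 in EtOH, 0.16 in CCl4 and 0.14 in olive oil. By set, the median difference of replicate 3 from the olive oil mean was 0.38 for the OAS family, 0.31 for the other induced genes and 0.26 for the sensors. It was -0.21 for the guanylate-binding proteins and -0.78 for the immunity-related GTPases. In replicates 1 and 2 those GTPases had medians of 0.80 and 0.77.

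**Figure D3:**
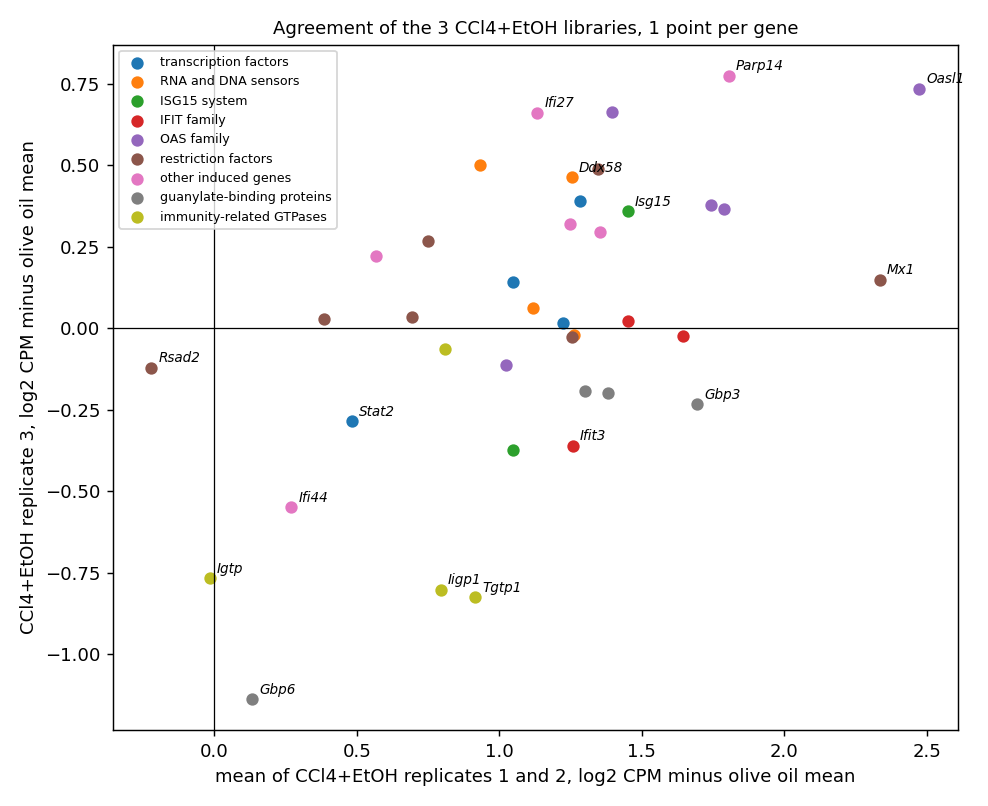
Each point is an interferon-stimulated gene, coloured by set. The horizontal axis gives the mean of CCl4+EtOH replicates 1 and 2 and the vertical axis replicate 3, both as log2 CPM minus the olive oil mean. Nearly all points lie right of 0, while on the vertical axis they spread on both sides of it, with Parp14 highest and Gbp6 lowest.

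Summed cell markers did not all follow the order of the 3 libraries. Summed tubule injury markers were at 39891, 29220 and 5197 CPM in CCl4+EtOH replicates 1, 2 and 3, and at 965 to 1710.0 CPM in all other groups. Summed proximal tubule markers were at 8551, 7826 and 19584 CPM in these 3 libraries, and at 19369.5 to 23794 CPM in all other groups. Summed markers of macrophages, cells that respond strongly to interferon, were at 771, 930.4 and 675 CPM in CCl4+EtOH, 205 to 337 CPM in EtOH, 227 to 581 CPM in CCl4 and 252 to 368 CPM in olive oil. Of the 10 macrophage markers, 9 were higher in CCl4+EtOH than in olive oil, and replicate 3 was thus above all other groups in macrophage markers while its interferon-stimulated genes had a median near 0. Summed T and NK cell markers were at 15.1, 10.05 and 11.1 CPM in CCl4+EtOH replicates 1, 2 and 3. They were at 8.78 to 11.9 CPM in olive oil, with 0 of 9 tested markers past the threshold. The part of these cells in the changes was not tested.

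Against EtOH kidneys, 33 of 39 members were higher in CCl4+EtOH kidneys and 0 were lower, with a median of 0.97, where 18.1% of all genes were higher and 16.2% lower. The largest changes were those of Mx1, at 2.10 ± 0.55 (adjusted p = 0.0103), and Oasl1, at 2.01 ± 0.39 (adjusted p = 0.0019). Tgtp1 and Gbp6, which had not passed against olive oil, now did, with changes of 1.58 ± 0.33 (adjusted p = 0.00341) for Tgtp1 and 1.004 ± 0.29 (adjusted p = 0.0172) for Gbp6. Those not past the threshold were Usp18, Ifit1, Oas3, Rsad2, Ifi44 and Igtp. Without CCl4+EtOH replicate 2 the count was 17, where 11.5% of all genes were higher in the same fit. With the level of adrenal markers as a covariate it was 6, and the share of all genes that were higher was then 3.98%. With EtOH replicate 4 as the lone EtOH library, whose spread was then taken from the other groups, the count was 0, against 0.864% of all genes, and the median change 1.10.

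Against CCl4 kidneys, 31 of 39 members were higher in CCl4+EtOH and 1, Rsad2, was lower, with a median of 0.91. The background was 18.7% higher and 16.2% lower. CCl4 replicates 1 and 2 had a study of 6 weeks, and replicates 3 and 4 had 4 further weeks of CCl4. Ethanol, study length and CCl4 schedule therefore cannot be told apart in this comparison either. All 4 immunity-related GTPases passed, among them Tgtp1 at 1.15 ± 0.33 (adjusted p = 0.0161) and Irgm1 at 0.89 ± 0.18 (adjusted p = 0.00266). The 7 not past the threshold were Usp18, Oas3, Mx2, Ifi44, Xaf1, Gbp5 and Gbp6. Without CCl4+EtOH replicate 1 the count was 19, all higher, against 11.5% of all genes, and without replicate 2 it was 16, all higher, against 12.3%. Both with the block on mouse numbers and with only these groups in the fit 20 were higher and 1 was lower. Of all genes 15.3% were higher with the block and 13.9% with only these groups.

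Between EtOH and olive oil kidneys 0 of 39 members passed the threshold in edgeR, where 0.168% of all genes passed, 0.0807% higher and 0.0869% lower. At an unadjusted p under 0.05 there were 5, or 12.8%, close to the 10.4% of all genes, and all 5 were lower in EtOH: Gbp6, Igtp, Tgtp1, Iigp1 and Samhd1. DESeq2 called 1 member, Gbp6, or 2.56%, close to its 2.17% of all genes. In limma-voom 2 passed, Gbp6 and Igtp, where 1.38% of all genes did. Without CCl4+EtOH replicate 3 edgeR called 2, Gbp6 and Tgtp1, against 0.939% of all genes. With CCl4+EtOH replicates 1 and 2 left out it called 3, namely Gbp6, Igtp and Tgtp1, against 1.1%, and with only the groups compared it called 1, Gbp6, against 0.607%. The median over members was -0.05.

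The members low in EtOH kidneys were mostly GTPases. All 4 EtOH libraries lay below all 3 olive oil libraries for 9 of 39 members, against 6.69% of all genes, and above them for 0, against 5.2%. These 9 were Stat2, Samhd1, Gbp2, Gbp3, Gbp6, Igtp, Irgm1, Iigp1 and Tgtp1, which include 7 of the 8 members in the 2 GTPase families. Of guanylate-binding proteins outside the members, Gbp10 changed by -1.23 ± 0.30 and Gbp4 by -0.37 ± 0.19. Gbp7 changed by only -0.08 ± 0.29 and Gbp9 by -0.06 ± 0.18. The immunity-related GTPase Irgm2, also no member, changed by -0.40 ± 0.16, and none of these further genes passed. Gbp6 averaged 8.18 ± 2.06 CPM in EtOH and 18.6 ± 1.32 CPM in olive oil (SD, n = 4 and 3), a change of -1.19 ± 0.29 (adjusted p = 0.116). Tgtp1 averaged 8.201 ± 2.46 CPM in EtOH and 17.04 ± 2.29 CPM in olive oil, a change of -1.06 ± 0.34 (adjusted p = 0.235). Igtp had a change of -0.65 ± 0.19 (adjusted p = 0.179) and Iigp1 one of -0.85 ± 0.32 (adjusted p = 0.35). EtOH replicate 4, which held almost no adrenal transcripts, was below every olive oil library for the 9 members by the way they were picked. It was at 8.56 CPM for Gbp6, 9.003 CPM for Tgtp1 and 10.97 CPM for Iigp1. The part of adrenal transcripts in the low values was not tested. That library held the most neutrophil transcripts, as given above, and their part was not tested. Summed T and NK cell markers, whose cells make interferon gamma, were at 3.63 to 9.15 CPM in EtOH and 8.78 to 11.9 CPM in olive oil. In CCl4 kidneys these markers were at 8.45 to 11.05 CPM, and the part of these cells was not tested.

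Between CCl4 and olive oil kidneys 0 of 39 members passed in edgeR, as did 0% of all genes tested. At an unadjusted p under 0.05 there were 2 members, Igtp and Gbp6, both lower in CCl4. That is 5.13% of members, close to the 3.97% of all genes, and DESeq2 and limma-voom called 0. All 4 CCl4 libraries lay below olive oil for 6 members, against 3.74% of all genes, and above for 2, against 3.47%. Below were Stat2, Gbp6, Igtp, Irgm1, Iigp1 and Tgtp1, and above were Xaf1 and Gbp5. Igtp averaged 14.8 ± 2.33 CPM in CCl4 and 25.02 ± 4.002 CPM in olive oil (SD, n = 4 and 3), a change of -0.76 ± 0.19 (adjusted p = 1). The value was -0.69 ± 0.29 (adjusted p = 1) for Gbp6, -0.63 ± 0.33 (adjusted p = 1) for Tgtp1 and -0.52 ± 0.32 (adjusted p = 1) for Iigp1. The EtOH and CCl4 comparisons share their olive oil libraries, so the GTPases' low values in both are not independent of each other.

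The CCl4 libraries differed by schedule. The median member difference from the olive oil mean was 0.24 and 0.05 in replicates 3 and 4, with 10 weeks of CCl4, and -0.28 and -0.17 in replicates 1 and 2, with 6 weeks. The level of Irf7, picked after its values were seen, was 19.1 and 19.5 CPM in the longer schedule and 12.7 and 12.8 CPM in the shorter one, and Oas2, Oas3 and Oasl2, chosen in the same way, were also higher in both mice of the longer one. Macrophage markers summed to 581 and 371 CPM in the longer and 227 and 324 CPM in the shorter schedule, and their part was not tested. The mice of the longer schedule also had high and those of the shorter one low numbers in the titles, so schedule and number range cannot be told apart. With 2 mice each, no test of the schedules was made.

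**Figure D4:**
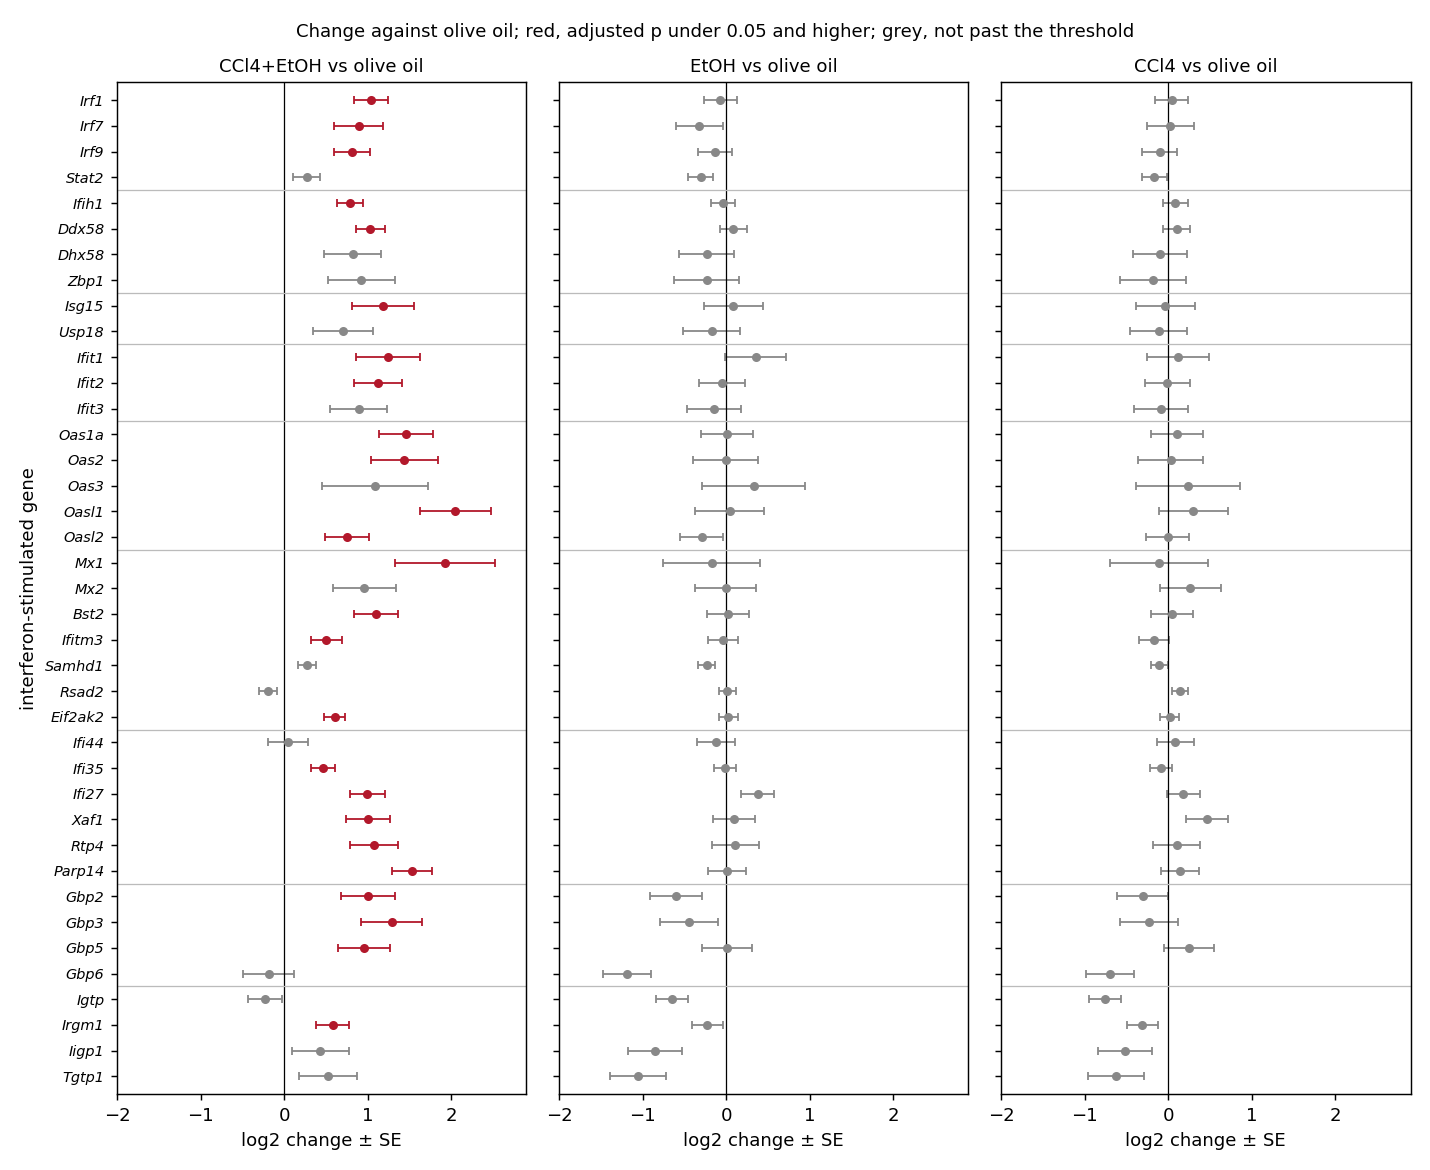
Points give the log2 change of each interferon-stimulated gene against olive oil and bars ± SE, for CCl4+EtOH, EtOH and CCl4. Red points are past an adjusted p of 0.05. The 25 red points are all in the CCl4+EtOH panel, and in the EtOH and CCl4 panels the lowest points are Gbp6, Tgtp1, Igtp and Iigp1.

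The interaction asked whether the change of CCl4+EtOH over EtOH differed from that of CCl4 over olive oil. All ethanol-treated mice had a 10-week schedule, while olive oil mice and CCl4 replicates 1 and 2 had 6 weeks. CCl4 replicates 3 and 4 had 4 further weeks of CCl4. Ethanol, study length and CCl4 schedule therefore cannot be told apart in the interaction. Over members its median was 1.06, and 9.12% of all genes passed in either direction. The interaction was positive and past the threshold for 15 of 39 members and negative for 0, against 5.49% and 3.63% of all genes. All 4 immunity-related GTPases and 3 of the 4 guanylate-binding proteins were among them. Tgtp1 had 2.21 ± 0.47 (adjusted p = 0.0183), Gbp3 had 1.97 ± 0.48 (adjusted p = 0.0286) and Gbp2 had 1.92 ± 0.43 (adjusted p = 0.0213). For Tgtp1, CCl4+EtOH exceeded EtOH by 1.58, while CCl4 differed from olive oil by -0.63. Gbp6 and Igtp did not pass in CCl4+EtOH against olive oil, with changes of -0.18 and -0.23. Their changes from olive oil were -1.19 and -0.65 in EtOH and -0.69 and -0.76 in CCl4. Gbp6, Igtp, Irgm1 and Iigp1 completed the 7 GTPases. The other 8 were Irf1, Irf9, Stat2, Ifih1, Ddx58, Samhd1, Eif2ak2 and Parp14, and Parp14 had 1.38 ± 0.31 (adjusted p = 0.0218). None of the OAS, IFIT or ISG15 genes passed, where Oasl1 had 1.71 ± 0.56 (adjusted p = 0.0691). The count was 0 without CCl4+EtOH replicate 1, where 1.32% of all genes were positive and passed. It was 0 without replicate 2, against 1.21%, and 33 without replicate 3, against 14.5%. It was 0 with the adrenal covariate, where 4 genes of all passed, and 0 with EtOH replicate 4 as the lone EtOH library, where 3 genes of all passed. Leaving out EtOH replicate 1, 3 or 4 gave 9, 7 and 8, and CCl4 replicate 1 or 2 gave 6 each. Leaving out olive oil replicate 1, 2 or 3 gave 1, 5 and 8. In these fits 1.2% to 4.29% of all genes were positive and passed. The 1 member without olive oil replicate 1 was 2.56% of members, which lies within that range.

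Other genes of the pathway numbered 111, of which 90 were tested. In CCl4+EtOH against olive oil 46 were higher and 0 lower, with a median of 0.53, where 18.9% of all genes were higher and 16.6% lower. In EtOH and in CCl4 against olive oil 0 passed, where 0.168% and 0% of all genes did. How these pathway counts move with a library left out is not given here. The interferons themselves had few counts. Of 19 ligand genes, 11 had 0 counts in all 14 libraries, where 3 counts in a library equal 0.119 to 0.190 CPM. Ifnk, a type I interferon and the 1 ligand with enough counts to be tested, was at 0.397, 0.565 and 0.216 CPM in CCl4+EtOH, 1.19, 0.445, 0.294 and 0.634 in EtOH, 0.622, 0.592, 0.473 and 0.365 in CCl4, and 0.939, 0.795 and 0.867 in olive oil. All 3 CCl4+EtOH libraries were below olive oil, and the difference of -1.12 ± 0.48 (adjusted p = 0.0811) did not pass. Each other ligand had at most 13 counts over all libraries. Ifnb1 had 1 count in CCl4+EtOH replicate 1, 1 in replicate 2 and 0 in all other libraries. Ifng summed to 6 counts in CCl4+EtOH, 0 in EtOH, 4 in CCl4 and 3 in olive oil.

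Of 6 receptor genes, 5 were higher in CCl4+EtOH than in olive oil. For this and the counts that follow, the background was 18.9% of all genes higher and 16.6% lower. Ifngr1, the ligand-binding chain for interferon gamma, was at 107, 104 and 64.3 CPM in CCl4+EtOH, 45.8, 43.2, 46.9 and 44.3 in EtOH, 37.9, 42.2, 47.9 and 41.8 in CCl4, and 50.2, 38.7 and 37.1 in olive oil, a change of 1.13 ± 0.17 (adjusted p = 0.00041). Ifngr2 changed by 1.04 ± 0.17 (adjusted p = 0.000655), Ifnar1 by 0.61 ± 0.10 (adjusted p = 0.000666), Il10rb by 0.52 ± 0.10 (adjusted p = 0.00186) and Ifnar2 by 0.50 ± 0.10 (adjusted p = 0.00253). Of 5 kinase and STAT genes, Stat3 and Jak1 rose, by 0.90 ± 0.18 (adjusted p = 0.00196) for Stat3 and 0.40 ± 0.12 (adjusted p = 0.0169) for Jak1. Of 12 upstream sensors and adaptors 7 rose, with Tmem173 (STING) at 2.04 ± 0.34 (adjusted p = 0.000823), Ikbke at 1.51 ± 0.19 (adjusted p = 0.000182), Tlr7 at 1.12 ± 0.28 (adjusted p = 0.00744) and Mb21d1 (cGAS) at 1.51 ± 0.40 (adjusted p = 0.00962). Tmem173 was at 29.3, 26.9 and 10.1 CPM in CCl4+EtOH, 5.25, 7.52, 5.298 and 4.95 in EtOH, 5.03, 5.23, 8.92 and 5.47 in CCl4, and 5.397, 5.21 and 5.47 in olive oil, so that all 3 CCl4+EtOH libraries were above every other library. Of 6 other interferon regulatory factors 1 rose, Irf4, by 1.85 ± 0.53 (adjusted p = 0.0148). Of 8 negative regulators 2 rose, Socs3 by 3.19 ± 0.51 (adjusted p = 0.000737) and Ptpn2 by 0.48 ± 0.14 (adjusted p = 0.0155). Socs3, an inhibitor of receptor kinases that other cytokines also induce, was at 42.7, 45.2 and 10.5 CPM in CCl4+EtOH, 3.12, 8.71, 3.63 and 4.44 in EtOH, 2.75, 4.54, 4.73 and 4.92 in CCl4, and 4.4, 3.58 and 2.82 in olive oil. Of 52 further interferon-induced genes tested, 29 rose and 0 fell, among them Lgals3bp by 1.65 ± 0.15 (adjusted p = 2.16e-05), Tap2 by 0.79 ± 0.08 (adjusted p = 2.9e-05), Ifitm2 by 0.53 ± 0.09 (adjusted p = 0.000933) and Ciita by 1.14 ± 0.22 (adjusted p = 0.00157).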

How the data were processed

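Kidney RNA of male C57BL/6 mice was sequenced. The authors' deposited file holds raw read counts, with gene symbols as rows, a column for each mouse and no normalization. Per the submitters' processing notes, the aligner was GSNAP and the genome build mm9. How reads were counted, with which annotation and whether by strand, is not given in the sources used here. The file has 14 columns for the 15 samples, so 1 sample, of the olive oil group, was not used here. Of 23893 rows, 27 had a date where the symbol belongs, held 0.168% to 0.209% of a library's counts and were left out.

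Genes passed filterByExpr by group and were tested in edgeR 4.0.16 (R 4.3.3) with TMM scaling and the robust quasi-likelihood F test. The 14 libraries of all 4 groups entered 1 fit, and p-values were adjusted after Benjamini-Hochberg over 16105 genes. The SE of a log2 change is its size divided by the square root of F. Groups were set by the source names. The titles number the mice, and p-values measure the spread between these samples. Libraries of a group all differed by more than sampling noise, with chi-square per gene of at least 10.3. Alternatives were other scalings and filters, DESeq2 1.42.0, limma-voom (limma 3.58.1), fits of fewer libraries or other groups, a block that splits the mouse numbers of the titles into low and high, and an adrenal covariate. The pipeline was tested on simulated data. Promoters came from RefSeq's GRCm38.p6 table, a later build than the counts, and were matched by symbol.

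Members and lists were chosen with earlier results of these data known. Values in every library were printed for the 3 members of a set with the smallest p and the 1 with the largest in CCl4+EtOH vs olive oil, for members called in the other comparisons with olive oil or in the interaction and for members with CCl4+EtOH replicate 3 above every olive oil library. Changes were printed for up to 4 pathway genes per list with the smallest p. Cmpk2, Ifnar2, Ifnb1, Ifng, Gbp4, Gbp7, Gbp9, Gbp10 and Irgm2 were named outside that rule, after their values were seen. The values of 1 pathway gene under that rule are not reported here.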

Additional observations from a re-analysis of the deposited data

Results flagged for a closer look

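Of 78 checks of a gene within the EtOH or the CCl4 group, 4 found a library far from the other 3, where chance gives about 1 in 20. EtOH replicate 2 stood high for Irf9, at 27.25 CPM, Ifit3, at 28.34 CPM, and Oasl2, at 14.1 CPM. EtOH replicate 1 stood low for Ifitm3, at 28.85 CPM.

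CCl4 went with a different change in the ethanol-treated than in the other mice for 15 members. This was by the interaction test of edgeR at an adjusted p under 0.05. Ethanol, study length and CCl4 schedule cannot be told apart in that test. Among GTPases the log2 difference was 2.208 for Tgtp1, 1.968 for Gbp3, 1.918 for Gbp2, 1.802 for Iigp1, 1.698 for Gbp6, 1.174 for Igtp and 1.119 for Irgm1. Among the other members it was 1.381 for Parp14, 1.071 for Irf1, 1.047 for Irf9, 0.8455 for Ddx58, 0.7466 for Stat2, 0.745 for Ifih1, 0.6136 for Samhd1 and 0.5654 for Eif2ak2. The 15 fell to 0 without CCl4+EtOH replicate 1, without replicate 2 or with the adrenal covariate, and to 1 without olive oil replicate 1. Against olive oil, the log2 change of CCl4+EtOH was -0.18 for Gbp6 and -0.23 for Igtp.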

How the results depend on the processing

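Scalings and filters moved no count of called members by more than 1.5 times. For CCl4+EtOH against olive oil, 25 members passed (35.4% of all genes in either direction), 12 with only the groups compared (21%), 6 with the block on mouse numbers (19.2%), 0 with CCl4+EtOH replicates 1 and 2 left out (5.19%), and 11 to 34 with 1 library left out, where 11 of the 25 were called in every such fit. Against EtOH, 33 passed (34.2% of all genes), 6 with the adrenal covariate (7.29%), 0 without EtOH replicates 1 to 3 (335 of 16777 genes), 0 without CCl4+EtOH replicates 1 and 2 (1.77%), and 17 to 36 with 1 library left out. Against CCl4, 32 passed (34.8%), 21 with only the groups compared (25.9%), 21 with the block (28.8%), 0 without CCl4+EtOH replicates 1 and 2 (3.39%), and 16 to 37 with 1 library left out. For EtOH against olive oil, 0 passed (0.168%), 1 with DESeq2 (2.17%), 2 with limma-voom (1.38%), 1 with only the groups compared (0.607%), 3 without CCl4+EtOH replicates 1 and 2 (1.1%), and 0 to 2 with 1 library left out. For CCl4 against olive oil it was 0 throughout leave-one-out fits. For the interaction, 15 passed (9.12%), 23 with DESeq2 (15.6%), 32 with limma-voom (29.9%), 23 with the block (9.61%), 0 with the adrenal covariate (0.0248%), 0 without EtOH replicates 1 to 3 (0.0179%), 0 without CCl4+EtOH replicates 1 and 2 (0.192%), and 0 to 33 with 1 library left out. The longer ISRE was in 10 promoters and the shorter one in 18. A lone library of a group was assumed to vary like the others, and these fits hold fewer samples. The cause of the other moves was not tested.

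Of 105 calls of single members, the sign changed only with CCl4+EtOH replicate 3 alone for its group. Against olive oil the log2 change was then -0.22 for Gbp2, -0.24 for Gbp3, -0.20 for Gbp5, -0.059 for Ifit1, -0.019 for Irf7, -0.066 for Irgm1 and -0.11 for Oasl2. Against EtOH it was -0.21 for Gbp5, -0.22 for Ifit3 and -0.038 for Mx2. Against CCl4 it was -0.0020 for Gbp3, -0.17 for Ifit1, -0.27 for Ifit3, -0.022 for Igtp, -0.28 for Iigp1, -0.040 for Irf7, -0.10 for Oasl2, -0.12 for Stat2 and -0.21 for Tgtp1. No paired analysis was possible because the title numbers are mouse numbers that no groups share. Libraries held 16.4 to 23.5 M counts, and what change was detectable at low CPM was not tested.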
